A study of Mus musculus with 118 samples.

Results

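The Wnt and Fgf ligand genes, which encode the extracellular signals of both families, were examined for peaks of Polycomb proteins at their promoters in untreated mouse embryonic stem cells (ESCs). The set was a fixed list of 41 gene symbols, 19 Wnt and 22 Fgf genes, of the 26180 genes with a curated RefSeq transcript. All 41 were found in the annotation. A promoter was taken as a curated transcription start site plus or minus 2500 bp on the mouse genome build mm10, and a gene was called for a factor when a peak shared at least 1 bp with any of its promoters. The genes were listed by family, without a filter on peaks, but with earlier results of these data known.

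Polycomb repressive complexes hold developmental genes in a repressed state in ESCs. RING1B is a catalytic subunit of PRC1, which places a single ubiquitin on histone H2A (H2AK119ub1), SUZ12 is a core subunit of PRC2, which methylates histone H3 (H3K27me3), and PCGF2 belongs to the canonical form of PRC1, which can be recruited by H3K27me3. Wnt proteins are lipid-modified ligands of the Frizzled receptors and steer body axis formation, patterning and stem cell renewal. Most Fgf proteins signal through Fgf receptors in a paracrine or endocrine way, and ESCs themselves use Fgf4 as an autocrine signal to prepare for differentiation.

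The series holds 118 chromatin immunoprecipitation and Input samples in 42 groups, of which the 3 peak lists of untreated cells were analysed here. For each of these proteins the labels give 3 untreated samples of the PRC1CPM line, and for SUZ12 a further 3 of the PRC1CKO line. PRC1CPM cells carry the allele Ring1aI50A/D53K and a switchable Ring1b, whose wild-type form is replaced by I53A/D56K once Cre acts on its fl/fl sites. PRC1CKO cells are Ring1a-/- with Ring1bfl/fl, and both lines express Cre from Rosa26::ERT2-Cre. Each line is 1 clone (41 and B9) of male E14 ESCs. RING1A was therefore already mutated or missing in the untreated cells of both lines, while Ring1b was intact until tamoxifen (800 nM for 72 h). Treated samples were not analysed here, but the authors filtered the RING1B list by loss of RING1B after tamoxifen in PRC1CKO cells. Those RING1B data of PRC1CKO cells were published earlier and are not among the 118 samples. Human HEK293T cells were the spike-in of the samples behind these lists. The lists held 18643 RING1B, 7438 SUZ12 and 3680 PCGF2 peaks. They give positions only, with no height, replicate or read depth, so the values below carry no error between replicates and no test was run. A gene without a peak was not called by the authors' rules, which does not show that the protein is absent. Peak lists hold no expression values, so ESC markers and the activity of the ligand genes could not be checked.

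The DNA just before the start site is shown for genes at the ends of the range, with each CG dinucleotide (CpG), the context in which Polycomb domains of mammals usually form, in capitals. Wnt6 shared the widest RING1B peak of the Wnt genes (chr1:74771642-74771891, plus strand), and Fgf9 had the widest RING1B peak of an Fgf gene (chr14:58072436-58072685, plus strand) after Fgf8. Fgf23 (chr6:127072652-127072901, plus strand) and Wnt8b (chr19:44493222-44493471, plus strand) had no peak of any factor at their promoters. Fgf4 (chr7:144861136-144861385, plus strand) had RING1B and SUZ12 but no PCGF2, and the first and the second start site of Fgf13 (chrX:59585573-59585822 and chrX:59567349-59567598, minus strand) had no peak and all 3 factors, respectively. Fgf4 and Fgf13 were chosen after their values were seen. The sequences are from RefSeq on mm10, 250 bases each, written 5′ to 3′ on the strand of the gene up to the base before the start site.
Wnt6: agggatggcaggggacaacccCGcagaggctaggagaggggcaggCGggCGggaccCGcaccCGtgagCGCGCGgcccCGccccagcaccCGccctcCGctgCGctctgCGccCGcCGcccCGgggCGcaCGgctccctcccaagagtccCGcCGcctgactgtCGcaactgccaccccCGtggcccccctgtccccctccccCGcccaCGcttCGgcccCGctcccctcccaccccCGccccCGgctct
Fgf9: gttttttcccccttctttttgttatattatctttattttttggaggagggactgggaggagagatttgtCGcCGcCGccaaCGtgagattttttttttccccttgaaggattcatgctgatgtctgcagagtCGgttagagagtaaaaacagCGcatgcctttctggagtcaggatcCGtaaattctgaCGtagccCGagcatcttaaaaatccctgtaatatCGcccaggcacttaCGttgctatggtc
Fgf4: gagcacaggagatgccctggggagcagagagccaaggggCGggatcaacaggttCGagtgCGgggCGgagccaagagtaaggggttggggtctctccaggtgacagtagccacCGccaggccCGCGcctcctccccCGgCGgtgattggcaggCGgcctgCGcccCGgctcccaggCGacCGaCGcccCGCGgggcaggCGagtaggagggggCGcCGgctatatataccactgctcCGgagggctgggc
Fgf23: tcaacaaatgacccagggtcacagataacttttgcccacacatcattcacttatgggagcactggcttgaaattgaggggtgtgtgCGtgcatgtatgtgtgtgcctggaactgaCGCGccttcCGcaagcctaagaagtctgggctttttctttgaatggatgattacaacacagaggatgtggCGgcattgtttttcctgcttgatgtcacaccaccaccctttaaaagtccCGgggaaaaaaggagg
Wnt8b: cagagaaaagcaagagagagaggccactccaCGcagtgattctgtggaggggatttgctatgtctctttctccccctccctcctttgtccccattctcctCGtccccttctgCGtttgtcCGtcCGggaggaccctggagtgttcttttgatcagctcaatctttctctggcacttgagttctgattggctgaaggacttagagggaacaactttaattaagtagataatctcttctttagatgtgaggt
Fgf13 first start site: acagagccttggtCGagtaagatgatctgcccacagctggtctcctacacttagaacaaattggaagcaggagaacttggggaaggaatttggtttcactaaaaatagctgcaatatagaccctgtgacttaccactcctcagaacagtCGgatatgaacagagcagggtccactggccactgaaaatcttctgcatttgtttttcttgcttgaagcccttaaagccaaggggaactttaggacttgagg
Fgf13 second start site: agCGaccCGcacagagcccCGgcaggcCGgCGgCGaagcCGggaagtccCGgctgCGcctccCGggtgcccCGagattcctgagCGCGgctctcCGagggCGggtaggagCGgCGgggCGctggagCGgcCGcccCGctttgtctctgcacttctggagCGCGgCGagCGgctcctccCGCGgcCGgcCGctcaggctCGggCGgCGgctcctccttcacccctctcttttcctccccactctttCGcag

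The 250 bases of Wnt6 held 28 CpGs with a GC content of 79.6%, and those of Fgf4 held 21 with 71.2%. Fgf9 held 11 CpGs with only 44.8% GC. Fgf23 and Wnt8b held 6 and 5 CpGs, both with 48.4% GC. Within Fgf13 the first start site held 2 CpGs and the second 33. Across all 32851 promoters of the RefSeq table the median was 6 CpGs. The table held 31 of the 41 ligand genes, and lacked Wnt5a, Wnt7b, Wnt8a, Wnt10a, Fgf1, Fgf8, Fgf15, Fgf16, Fgf17 and Fgf20. The motif CGCG, which reads the same on both strands and itself contains CpGs, occurred in the 250 bases of 23 of these 31 genes, against 36.3% of all 27025 genes of the table, a gene being counted when any of its promoters held the motif. By promoter, 28 of the 40 of these genes held it, against 33.8% of all promoters. The TATA-box letters TATAAA, searched on both strands, occurred in 2 of the 31 genes, Wnt11 and Fgf21, against 14.3% of all genes of the table.

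Most of the ligand genes carried all 3 factors. RING1B was called at 36 of the 41 genes, where 53.2% of all annotated genes were called. SUZ12 was called at 34, against 24.8% of all genes, and PCGF2 at 30, against 13.5%. All 30 genes with PCGF2 also had RING1B and SUZ12, so that 73.2% of the ligand genes had all 3 factors, where the share over all genes was 13.4%. The remaining 11 genes fell into 3 classes. Fgf4, Fgf17, Fgf20 and Fgf21 had RING1B and SUZ12 without PCGF2, or 4 of 41 genes, where 11.1% of all genes did. Wnt8a and Fgf22 had RING1B alone, or 2 of 41, where 28.6% of all genes did. Wnt8b, Fgf1, Fgf6, Fgf7 and Fgf23 had no peak of any factor at a promoter. RING1B was thus not called at 5 of 41 genes, where 46.8% of all genes had no RING1B peak.

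**Figure D1:**
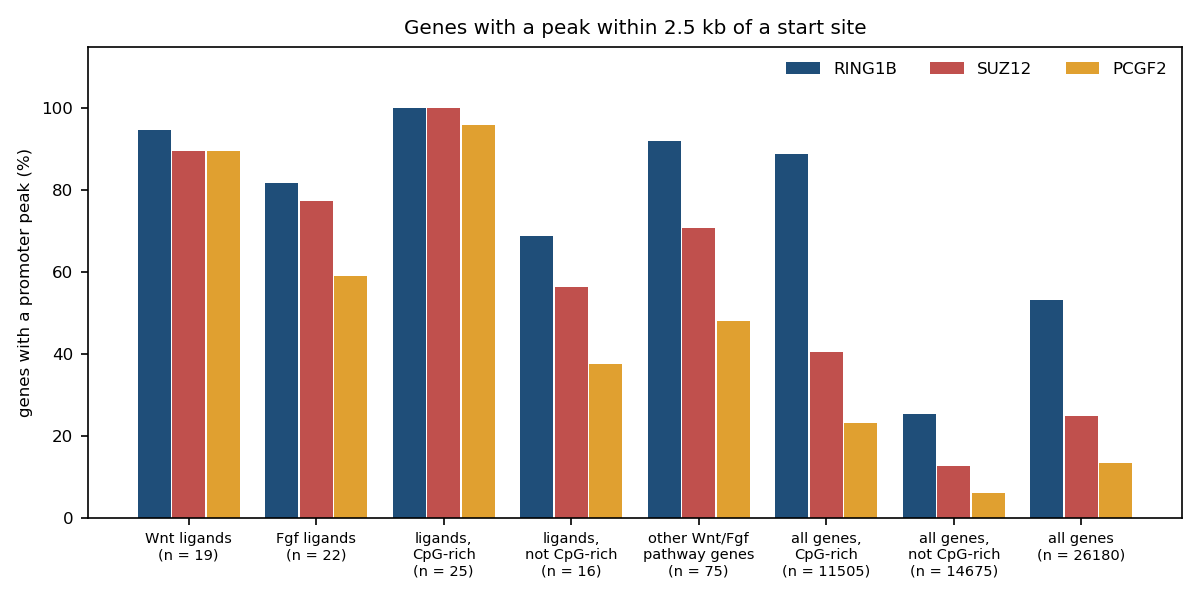
Percentage of genes (vertical axis) with a RING1B, SUZ12 or PCGF2 peak within 2.5 kb of a start site, for the Wnt and Fgf ligand genes, for the ligand genes with and without a CpG-rich promoter, for 75 other genes of both pathways and for all annotated genes. PCGF2 stood at 89.5% of the Wnt and 59.1% of the Fgf ligand genes, against 13.5% of all genes.

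The 2 families differed most in PCGF2. Of the 19 Wnt genes, 18 had RING1B, and the same 17 had SUZ12 and PCGF2. Of the 22 Fgf genes, 18 had RING1B, 17 had SUZ12 and 13 had PCGF2. The 4 genes with RING1B and SUZ12 but no PCGF2 were all Fgf genes. These counts describe the gene lists, and the difference between the families was not tested.

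Wnt2 and Wnt2b, Wnt3 and Wnt3a, Wnt5a and Wnt5b, Wnt7a and Wnt7b, Wnt9a and Wnt9b, and Wnt10a and Wnt10b, which are pairs of close paralogs, had all 3 factors at both genes. So did the genes without a close paralog, Wnt1, Wnt4, Wnt6, Wnt11 and Wnt16. The exception was the pair Wnt8a and Wnt8b, with RING1B alone and no peak. The Fgf subfamilies were mixed. The only uniform group was Fgf11, Fgf12, Fgf13 and Fgf14, with all 3 factors at each. They encode the intracellular Fgf homologous factors, which act on sodium channels rather than through Fgf receptors. This uniformity rested on counting any start site. With only the most upstream one, Fgf12, Fgf13 and Fgf14 lost SUZ12 and PCGF2. The peaks of Fgf11 also held start sites of neighbouring genes. In the group of Fgf3, Fgf7, Fgf10 and Fgf22, which signal from mesenchyme to epithelium in many organs, Fgf3 and Fgf10 had all 3 factors, Fgf22 had RING1B alone and Fgf7 had no peak. In the group of Fgf8, Fgf17 and Fgf18, known from the patterning of the midbrain and limb, Fgf17 lacked PCGF2. In the group of Fgf9, Fgf16 and Fgf20 the gene without PCGF2 was Fgf20. In the group of Fgf4, Fgf5 and Fgf6, Fgf5 had all 3, Fgf4 lacked PCGF2 and Fgf6 had no peak. Fgf1 and Fgf2, the founding members, had no peak and all 3 factors. Of the hormone-like group, Fgf15, a bile acid-induced hormone of the gut, had all 3, Fgf21, a metabolic hormone of the liver, lacked PCGF2, and Fgf23, a phosphate hormone of bone, had no peak.

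The RING1B peaks at ligand genes were wide. The width of the widest RING1B peak at each of the 36 genes ranged from 777 to 46610 bp, with a median of 6042 bp and quartiles of 4172 and 9618 bp. Over all 13922 genes with a RING1B peak the median was 1810 bp. Of these, 7498 had RING1B without SUZ12 or PCGF2, as did 2 of the 36 ligand genes. The medians thus compare unlike mixes of classes, and the median over all genes with the 3 factors is not given here. The Wnt genes had a median of 7179 bp and the Fgf genes of 4658 bp. A width of 8000 bp or more was reached at 10 of the 41 genes, 7 Wnt and 3 Fgf, where 3.40% of all annotated genes had such a peak. SUZ12 widths had a median of 7842 bp over 34 genes (range 1035 to 29012 bp) against 3232 bp over all genes with SUZ12. PCGF2 widths had a median of 4418 bp over 30 genes (range 1039 to 18167 bp) against 2912 bp. These medians describe widths of called regions, which depend on signal strength and on the peak caller.

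**Figure D2:**
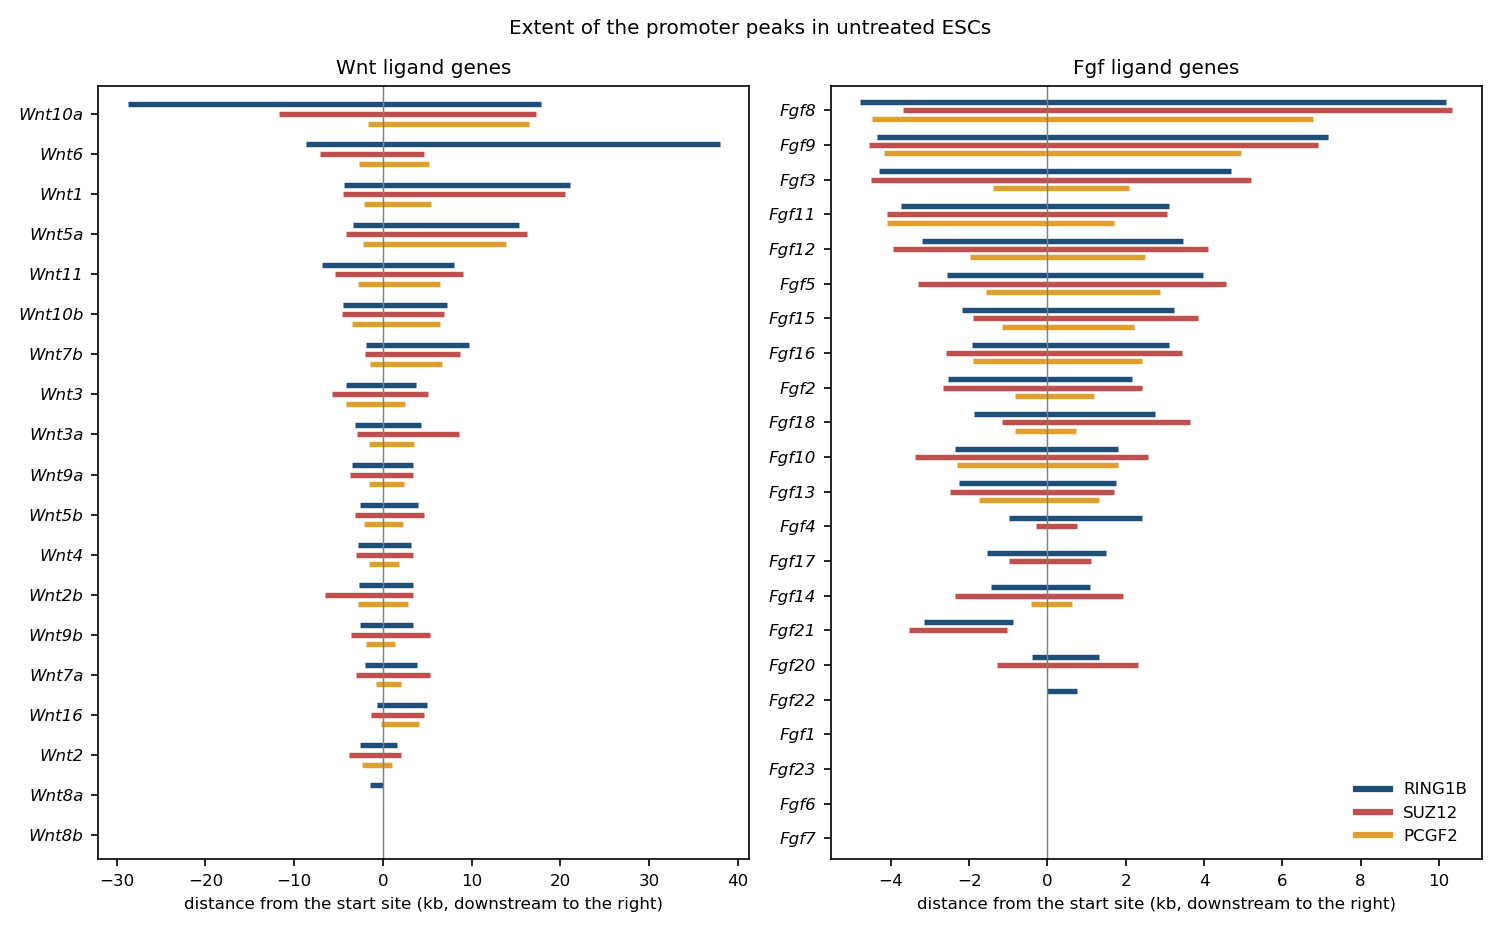
Extent of the widest RING1B, SUZ12 and PCGF2 promoter peak of each ligand gene around the start site nearest to its widest RING1B peak, in kb with transcription running to the right (the scales of the 2 panels differ). Genes are ordered by RING1B width, from 46610 bp at Wnt6 and Wnt10a to rows with no bar, such as Wnt8b and Fgf7.

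The widest peak of the set joined 2 ligand genes. Wnt6 and Wnt10a lie head to tail on chromosome 1, with start sites 20.1 kb apart, and 1 RING1B peak of 46610 bp (chr1:74763258-74809867) covered both genes whole. Over the same stretch SUZ12 was called as separate promoter peaks of 11749 bp at Wnt6 (chr1:74764783-74776531) and 29012 bp at Wnt10a (chr1:74780314-74809325), with a further SUZ12 peak of 1935 bp (chr1:74777108-74779042) in the 3782 bp between them. PCGF2 was called as promoter peaks of 7926 bp (chr1:74769160-74777085) and 18167 bp (chr1:74790327-74808493), with a further PCGF2 peak of 3746 bp (chr1:74781071-74784816) over exons 2 to 4 of Wnt6 in the 13241 bp between them. This was the only promoter peak of any factor that the ligand genes shared. Wnt1 and Wnt10b, which lie back to back with start sites 11.7 kb apart, had separate RING1B peaks with a gap of 2907 bp. Wnt3 and Wnt9b (24.4 kb), Wnt3a and Wnt9a (16.2 kb), and Fgf3, Fgf4 and Fgf15 (22.8 and 35.1 kb between neighbours) also lie close together, and their RING1B promoter peaks were 17581, 9551, 17092 and 30563 bp apart. No other RING1B peak lay between those of the Wnt pairs, whereas 2 lay between Fgf3 and Fgf4 and 1 between Fgf4 and Fgf15. Fgf6 and Fgf23, 57.4 kb apart, both lacked promoter peaks.

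The other wide Wnt peaks stood over single ligand genes. Wnt1, needed for the midbrain, had a RING1B peak of 25397 bp (chr15:98785533-98810929) and a SUZ12 peak of 25096 bp (chr15:98785318-98810413) that both reached on to the start site of Ddn, a neighbouring neuronal gene, while its PCGF2 peak spanned 7571 bp (chr15:98787757-98795327). Wnt5a, the main noncanonical ligand, had peaks of 18733 bp for RING1B (chr14:28502055-28520787), 20427 bp for SUZ12 (chr14:28501318-28521744) and 16183 bp for PCGF2 (chr14:28503219-28519401). Wnt5a was thus covered by all 3 factors over similar lengths, whereas at Wnt1 the PCGF2 promoter peak was much shorter. Whether other PCGF2 peaks lay beyond Wnt1 under the rest of its RING1B peak is not given here.

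Wnt11, with roles in gastrulation movements and the kidney, had peaks of 14860 bp for RING1B (chr7:98828220-98843079), 14357 bp for SUZ12 (chr7:98829756-98844112) and 9141 bp for PCGF2 (chr7:98832366-98841506). Wnt10b, a regulator of bone and fat cells, had 11755 bp (chr15:98770871-98782625), 11510 bp (chr15:98771205-98782714) and 9969 bp (chr15:98771707-98781675) for the same factors. Wnt7b, known from lung and nervous system, had 11624 bp (chr15:85572102-85583725), 10698 bp (chr15:85573118-85583815) and 8091 bp (chr15:85575141-85583231), and these peaks also held the start site of the gene AU022754. At all 3 genes RING1B was the widest and PCGF2 the narrowest of the peaks.

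Among the Fgf genes the widest RING1B peak was at Fgf8, a signal of the gastrula, the midbrain and the limb. Fgf8 had peaks of 14968 bp for RING1B (chr19:45732712-45747679), 14048 bp for SUZ12 (chr19:45732549-45746596) and 11276 bp for PCGF2 (chr19:45736112-45747387). Fgf9, with roles in testis and lung, had 11519 bp (chr14:58068328-58079846), 11487 bp (chr14:58068119-58079605) and 9108 bp (chr14:58068521-58077628). At both genes RING1B and SUZ12 covered nearly the same stretch, and PCGF2 a shorter one. Fgf3, needed for the inner ear, had 8984 bp for RING1B (chr7:144834316-144843299), 9695 bp for SUZ12 (chr7:144834113-144843807) and 3492 bp for PCGF2 (chr7:144837214-144840705). Its PCGF2 peak was much shorter than the others, as at Wnt1.

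Fgf11 had peaks of 6836 bp for RING1B (chr11:69799179-69806014), 7165 bp for SUZ12 (chr11:69799226-69806390) and 5811 bp for PCGF2 (chr11:69800575-69806385), all of which also held the start sites of Tmem102 and G630025P09Rik, so the peaks cannot be assigned to Fgf11 alone. Fgf12 had peaks of 6664 bp (chr16:28442607-28449270), 8045 bp (chr16:28441966-28450010) and 4481 bp (chr16:28443575-28448055) at the fourth of its start sites. Fgf5, which marks the exit of ESCs from naive pluripotency and later controls hair length, had 6539 bp (chr5:98251624-98258162), 7869 bp (chr5:98250866-98258734) and 4463 bp (chr5:98252606-98257068).

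The RING1B peaks lay on their start sites and reached into the genes. A RING1B peak contained a start site at 35 of the 36 genes. Measured from that start site, the widest RING1B peak reached further downstream than upstream at 24 of these 35, with medians of 3438 bp downstream and 2582 bp upstream. Where the peak held several start sites, as at Wnt5a, Wnt7b, Wnt11 and Fgf8, the most upstream was used, which favours downstream reach. It covered the whole gene at 5, Wnt1, Wnt6, Wnt10a, Wnt10b and Fgf8. The exception to the first count was Fgf21. Its RING1B peak of 2275 bp (chr7:45616359-45618633) and SUZ12 peak of 2510 bp (chr7:45616529-45619038) ended 869 and 1039 bp before its start site and held the start site of Fut1, a fucosyltransferase gene beside it. With a promoter of 500 bp on each side Fgf21 lost both calls. Of the 39 RING1B peaks at ligand promoters, the midpoint of 19 lay in an intron of the gene, of 8 in an exon and of 12 outside the gene. Reach, whole-gene cover and midpoints are not given over all genes, so these counts describe the ligand genes only.

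Where all 3 factors were called, PCGF2 had the narrowest peak. This held for all 30 genes, and over all 3508 annotated genes with the 3 factors for 95.0%. The PCGF2 width was at the median 67.8% of the RING1B width, against 64.0% over all such genes. SUZ12 was wider than RING1B at 22 of the 30, or 73.3%, against 66.7% over all such genes, so in these orders the ligand genes were close to the rest. The lists were called by different rules, and the widths were not tested between lists.

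**Figure D3:**
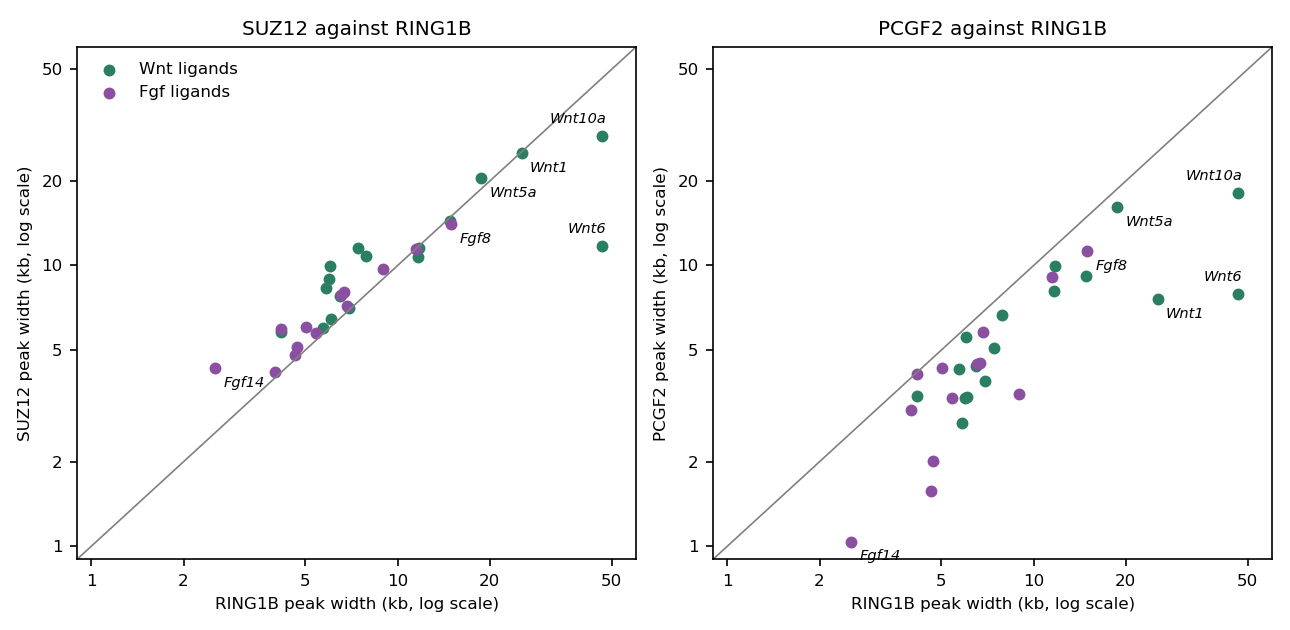
SUZ12 (left) and PCGF2 (right) peak width against RING1B peak width in kb on log axes, for the 30 ligand genes with all 3 factors, each point being a gene and the line marking equal widths. All 30 PCGF2 points lie under the line, and 22 SUZ12 points lie above it, with Wnt6 and Wnt10a far to the right at a RING1B width of 46.6 kb.

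The genes with RING1B and SUZ12 but no PCGF2 had short RING1B peaks for this set. Fgf4 had a RING1B peak of 3404 bp (chr7:144860392-144863795) and a SUZ12 peak of 1035 bp (chr7:144861097-144862131), the narrowest SUZ12 peak of the set, and the nearest PCGF2 peak was 20.7 kb away. Fgf17 had 3035 bp of RING1B (chr14:70640779-70643813) and 2089 bp of SUZ12 (chr14:70641166-70643254). Fgf20, a neural and kidney progenitor signal, had 1728 bp (chr8:40285628-40287355) and 3609 bp (chr8:40284632-40288240). All 3 had RING1B peaks under the first quartile of the ligand genes, 4172 bp. Among all genes with a RING1B peak, the widths at Fgf4, Fgf17 and Fgf20 stood at percentiles 75.3, 71.4 and 47.7. They were thus short only beside the other ligand genes.

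Taking the widest RING1B peak of each gene, those of the 2 genes with RING1B alone were the narrowest of the set. At Wnt8a, an early signal of the primitive streak, the promoter peak spanned 1547 bp (chr18:34540841-34542387), ending 60 bp after the start site. A second RING1B peak of 2576 bp and a SUZ12 peak of 4065 bp lay over the last of its 6 exons and past the gene end, the SUZ12 peak starting 3319 bp from the start site. At Fgf22, known as an organiser of synapses, RING1B spanned 777 bp (chr10:79755096-79755872), and the nearest SUZ12 peak was 21.7 kb away.

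Of the 5 genes without a promoter peak, 2 held peaks further inside the gene. In Wnt8b, a forebrain Wnt gene, a RING1B peak of 5754 bp (chr19:44508906-44514659), a SUZ12 peak of 6055 bp (chr19:44508657-44514711) and a PCGF2 peak of 5387 bp (chr19:44508978-44514364) lay together 15.4, 15.2 and 15.5 kb after the start site. The RING1B and PCGF2 peaks covered exons 3 to 6 of its 6 exons, with no other curated start site inside them. In Fgf23 a RING1B peak of 2134 bp (chr6:127079565-127081698) and a SUZ12 peak of 3427 bp (chr6:127078435-127081861) lay over the last of 3 exons, 6.66 and 5.53 kb after the start site. With predicted RefSeq transcripts added to the curated ones, RING1B and SUZ12 were called at a promoter of Fgf23 as well. The same RING1B peak was the nearest to Fgf6, a muscle Fgf gene, at 64.0 kb. For Fgf1 the nearest RING1B peak was 73.5 kb away at the promoter of Arhgap26. For Fgf7, the keratinocyte growth factor, it was 117 kb away at the promoters of Dtwd1 and Fam227b.

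CpG content differed along the same classes. A promoter was called CpG-rich when the 500 bp on each side of a start site had a CpG observed/expected of at least 0.6 and a GC content of at least 50%. By this measure 25 of the 41 ligand genes (61.0%), 14 Wnt and 11 Fgf, had a CpG-rich promoter, against 43.9% of all genes. All 25 had RING1B, where 88.8% of all genes with a CpG-rich promoter did. All 25 had SUZ12, against 40.4%, and 24 had PCGF2, against 23.04%, the exception being Fgf4. The same 24 had all 3 factors, where 22.96% of the CpG-rich genes did. Among the 16 ligand genes without a CpG-rich promoter, 11 had RING1B, against 25.3% of all such genes, 9 had SUZ12, against 12.5%, and 6 had PCGF2, against 5.94%. These 6 were Wnt1, Wnt10a, Wnt16, Fgf10, Fgf11 and Fgf14, though the PCGF2 peak of Fgf11 also held start sites of neighbouring genes. In both classes of promoter the ligand genes thus stood above the share over all genes of the class for each factor, by a description and not by a test. For RING1B at CpG-rich promoters that share was itself high, at 88.8%. The classes were not matched in CpG content. Without a CpG-rich promoter the median CpG observed/expected was 0.38 in the ligand genes and 0.25 in all genes. With one it was 0.80 and 0.79.

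**Figure D4:**
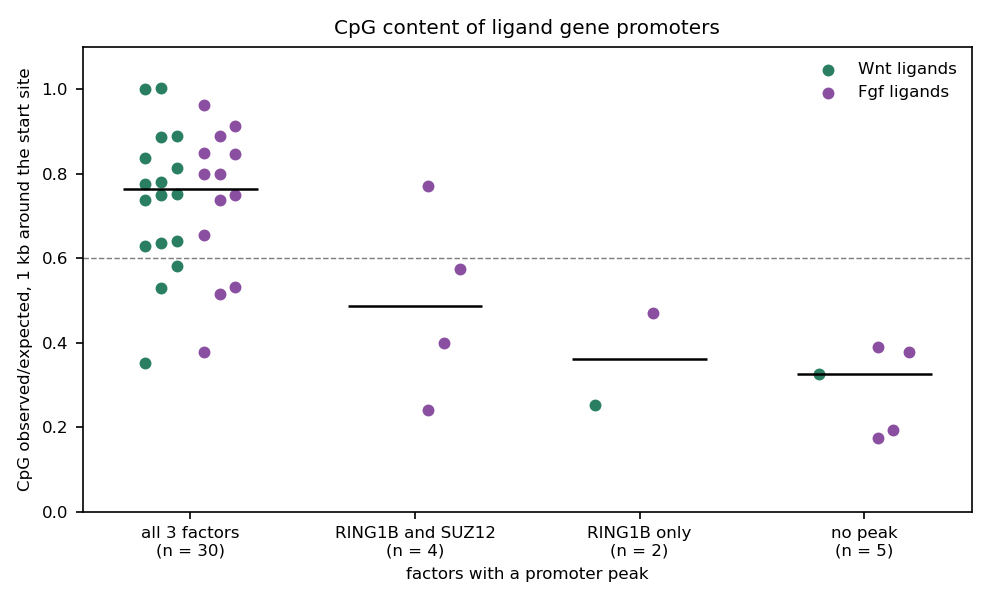
CpG observed/expected in the 1 kb around the start site (vertical axis) of each ligand gene, grouped by the factors with a promoter peak, with the median of each group as a bar and the threshold of 0.6 dashed. For a gene with several start sites the value is that of the site with the highest ratio. The median falls from 0.76 with all 3 factors to 0.33 with no peak.

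The CpG observed/expected had a median of 0.76 (range 0.35 to 1.00) in the 30 genes with all 3 factors. It was 0.49 (0.24 to 0.77) in the 4 genes with RING1B and SUZ12, and 0.25 and 0.47 in Wnt8a and Fgf22. In the 5 genes without a peak the median was 0.33 (0.18 to 0.39). The ranges overlapped: Wnt16 and Fgf11 had all 3 factors at 0.35 and 0.38, within the range of the genes without a peak. The Fgf11 peaks also held the start sites of Tmem102 and G630025P09Rik, whose CpG ratios are not given here. Fgf4 had a ratio of 0.77, above the median of the genes with all 3 factors.

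Genes with several start sites allowed a comparison within a gene. Of the 41 genes, 8 had more than 1 curated start site. In Wnt5a, Wnt7b, Wnt11 and Fgf8 every start site lay inside the same peak of each factor. In Wnt5b, Fgf12, Fgf13 and Fgf14 the sites differed. These 4 genes had 13 start sites, 7 of them with all 3 factors at a CpG observed/expected of 0.51 to 1.00 (median 0.84), and 6 without at 0.17 to 0.54 (median 0.39). The ranges met only through Fgf14 and Fgf12.

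Wnt5b had RING1B, SUZ12 and PCGF2 peaks of 6491 bp (chr6:119540430-119546920), 7815 bp (chr6:119539711-119547525) and 4372 bp (chr6:119542064-119546435) at its first start site and no peak at the second. At the third, 95.0 kb downstream, it had RING1B over 4352 bp (chr6:119448351-119452702) and SUZ12 over 1813 bp (chr6:119450831-119452643), without PCGF2. The 2 outer start sites of Wnt5b thus differed in PCGF2, and in the CpG ratio, at 1.00 and 0.44.

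Fgf12 had only a RING1B peak of 953 bp (chr16:28753242-28754194) at its first start site. At the second and the third, which lie 188.3 and 188.7 kb downstream, it had RING1B over 2087 bp (chr16:28564110-28566196), SUZ12 over 2481 bp (chr16:28564192-28566672) and PCGF2 over 1555 bp (chr16:28564167-28565721). The widest peaks stood at the fourth, 307 kb downstream, as given above. Fgf12 thus had all 3 factors at its inner start sites and not at the outermost.

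Fgf13 had no peak at the first and the third of its start sites, whose CpG ratios were 0.23 and 0.34. At the second, 18.2 kb downstream, RING1B spanned 3991 bp (chrX:59565607-59569597), SUZ12 4185 bp (chrX:59565650-59569834) and PCGF2 3064 bp (chrX:59566023-59569086). At the fourth, 451 kb downstream, they spanned 2277 bp (chrX:59133249-59135525), 2618 bp (chrX:59133264-59135881) and 1522 bp (chrX:59133546-59135067). The ratios of these sites were 0.85 and 0.82. Fgf14 had no peak at its first start site and all 3 factors, over 2538, 4302 and 1039 bp, at the second, 485 kb downstream, although the ratios of both sites were close, at 0.49 and 0.51. In number of CpGs within 500 bp on each side they differed, with 25 at the first and 50 at the second.

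**Figure D5:**
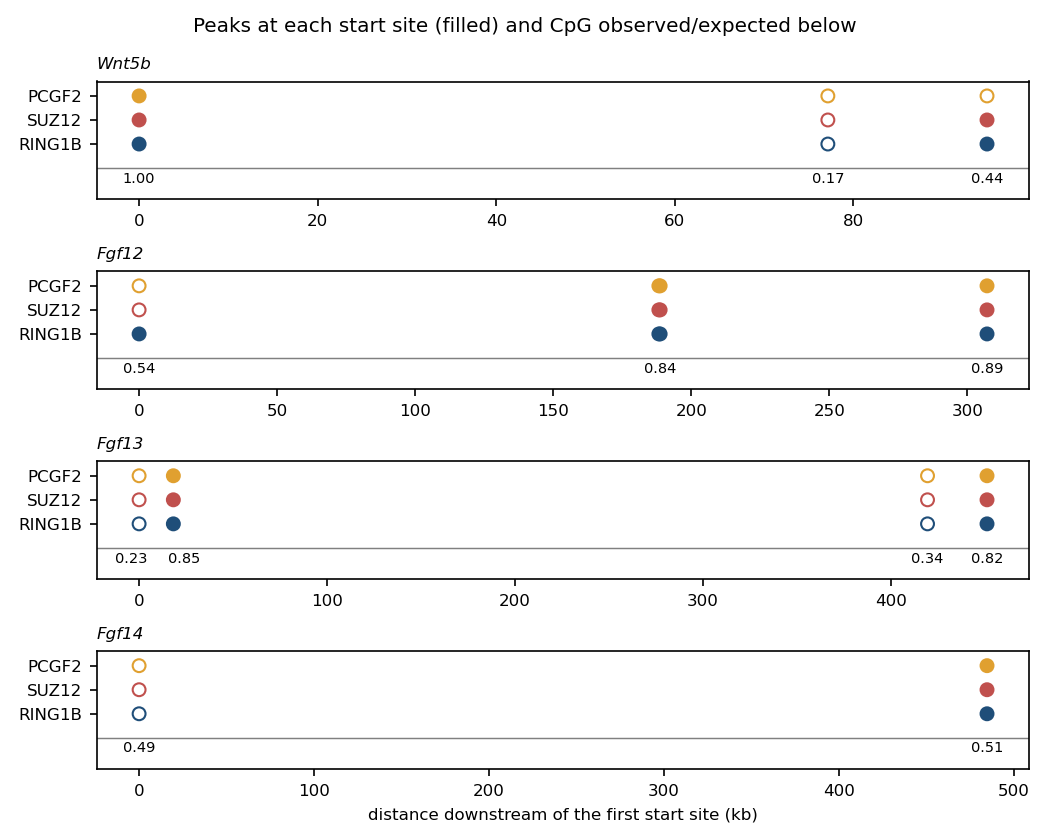
Peaks at each curated start site of Wnt5b, Fgf12, Fgf13 and Fgf14, by distance in kb downstream of the first start site, with filled circles for a peak of RING1B, SUZ12 or PCGF2 and open circles for none, and the CpG observed/expected of the site underneath. The second and the third site of Fgf12 lie too close to be told apart and show the value of the latter, 0.84. In Fgf13 filled and open sites alternate along the gene.

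Outside the ligands, 75 other genes of both pathways were found of 76 listed, and Spry3 was not analysed here. Of these 69 had RING1B, 53 had SUZ12 and 36 had PCGF2. The share with PCGF2 was 48.0%, against 73.2% of the ligand genes and 13.5% of all genes, although 81.3% of the 75 had a CpG-rich promoter. Their median RING1B width was 3823 bp. In the lists of receptors and secreted proteins PCGF2 was called at more than 50% of the genes. It was found at 13 of 18 Wnt receptors and co-receptors, of which Fzd2 had the widest RING1B peak (7760 bp), at 7 of 11 secreted Wnt inhibitors, led by Notum (10911 bp), an enzyme that removes the lipid of Wnt proteins, and at 4 of 7 Fgf receptors and co-receptors, led by Fgfr1 (8870 bp). Of 7 genes for Wnt secretion and agonists, 5 had PCGF2, with the widest RING1B peak at Rspo1 (7285 bp). The PCGF2 shares of the Wnt receptors (72.2%) and of the secretion and agonist genes (71.4%) were thus close to that of the ligand genes. SUZ12 stood at 94.4% of the Wnt receptors, 90.9% of the secreted inhibitors, 85.7% of the Fgf receptors and 71.4% of the secretion and agonist genes, against 82.9% of the ligand genes.

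In the lists of signal transducers and Fgf signal inhibitors most genes had RING1B without PCGF2. A CpG-rich promoter stood at 93.75% of the Wnt signal transducers and at 87.5% of the genes in each Fgf list. Of all genes with such a promoter, 88.8% had RING1B, 40.4% SUZ12 and 23.04% PCGF2. For RING1B and PCGF2 these lists were thus near the share of CpG-rich genes. Of 16 Wnt signal transducers 15 had RING1B, 7 SUZ12 and 3 PCGF2, and the widest RING1B peak was at Lef1 (15623 bp), a transcription factor of the pathway. Ctnnb1, which encodes beta-catenin, had 375 bp of RING1B alone. Of 8 Fgf signal inhibitors all had RING1B, 5 SUZ12 and 2 PCGF2, the widest RING1B peak being at Spry2 (5094 bp), which had neither other factor. Of 8 Fgf signal transducers all had RING1B, 3 SUZ12 and 2 PCGF2, the widest being at Etv4 (5198 bp), which had PCGF2 without SUZ12. No RING1B peak was called at Porcn and Ndp (secretion and agonists), Lrp6, Dkk4, Gsk3a and Klb, of which Lrp6 had a SUZ12 peak of 600 bp. These lists were not tested against the ligand genes.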

How the data were processed

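Calibrated ChIP-seq of mouse ESCs was analysed from the processed peak lists. According to the methods of the study, paired-end reads were aligned with Bowtie 2 to mm10 joined to hg19 for the human spike-in, unique reads were kept and duplicates were removed with Sambamba. Broad peaks were called with MACS2 against Input, and a custom blacklist was removed. The RING1B and SUZ12 lists hold peaks found on merged replicates in both lines, and RING1B peaks without a significant loss after tamoxifen in PRC1CKO cells were dropped. The RING1B data of PRC1CKO cells are not part of this series and were not analysed here. PCGF2 peaks were called in each replicate and kept if found in all. The filters can shorten a list and the caller can join or split peaks, so widths were not tested between lists. The deposited lists hold the first and last position of every peak, and no depth.

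Start sites and exons came from RefSeq transcripts on GRCm38.p6, the assembly of mm10, and 0 peaks ran past a chromosome end. Groups came from the sample labels. Counts and widths were computed with Python 3.11.15, pandas 2.3.3, NumPy 2.4.6 and pysam 0.24.0, figures with matplotlib 3.10.9. The width of a gene is that of its widest promoter peak. Exon numbers are those of the curated transcript with the most exons. The overlap search was tested on 16000 simulated windows, of which 0 differed from a brute-force search. The ligand genes, pathway lists and thresholds were chosen with earlier results of these data known. Positions were given for the 6 widest RING1B peaks of each family, genes lacking SUZ12 or PCGF2 beside RING1B, shared peaks and genes with more than 1 RING1B peak, and all genes without RING1B were named. Sequences were to be those of the gene with the widest RING1B peak in each family and of the 2 peak-free genes with the lowest CpG ratio, passing to the next gene where a sequence was not used here. In all, 100 alternative values were computed for 10 results, changing the promoter window, the overlap, the start sites, the peaks kept or merged, the width measure and the CpG thresholds.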

Additional observations from a re-analysis of the deposited data

How the results depend on the processing

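Of 100 alternative values for 10 results, 96 stayed within 1.5 times the reported value and 4 did not. The count of genes with RING1B and without SUZ12, 2 as reported, was 1 with promoters of 5000 bp on each side and 1 over the whole gene body with 2500 bp on each side, where Wnt8a gained SUZ12, and 1 with peaks of at least 1000 bp only, where Fgf22 lost RING1B. The count of genes with no RING1B peak was 3 over the whole gene body, against 5, since Wnt8b and Fgf23 gained it. The other counts were 34 to 38 for RING1B, 31 to 37 for SUZ12, 27 to 31 for PCGF2 and 17 to 25 for a CpG-rich promoter. With only the most upstream start site, Fgf12, Fgf13 and Fgf14 lost SUZ12 and PCGF2. Over the 10 windows, overlaps, start sites and peak filters tried, all genes stayed between 41.7% and 56.9% for RING1B and between 12.05% and 14.75% for PCGF2. Median widths were 5827 to 6282 bp for RING1B, 7165 to 8104 bp for SUZ12 and 4352 to 4525 bp for PCGF2. Peak calls came from pooled or intersected samples, so the effect of leaving out a replicate could not be computed. No paired analysis was possible because the peak lists carry no replicates. The read depth behind each peak is not known, and short or weak regions such as those of Fgf22 and Fgf4 may depend on it.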

Other observations

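Peaks outside the promoters also lay within the ligand genes. RING1B had 19 such peaks in 16 genes, 11 Wnt and 5 Fgf, with a median width of 2206 bp (range 256 to 11928 bp), and 11 of the 19 touched the last exon. SUZ12 had 15 in 13 genes and PCGF2 had 5 in 4 Wnt genes. The share of all annotated genes with such peaks is not given here, so these counts do not show whether the ligand genes differ from others. One of the SUZ12 peaks, in Wnt6, is the promoter peak of Wnt10a. The widest RING1B peak of this kind was in Wnt3, a ligand needed for the primitive streak, where 11928 bp (chr11:103805307-103817234) lay over exons 2 to 5 of 5, 31.1 kb from the start site. It was wider than the 7904 bp peak at the Wnt3 promoter. SUZ12 (10592 bp) and PCGF2 (4865 bp) peaks lay over the same exons except the last, and a further group of peaks of 2206, 4915 and 1038 bp lay in no exon, 20.5, 18.9 and 20.7 kb from the start site.

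In Wnt3a, the paralog of Wnt3, RING1B (3724 bp), SUZ12 (4337 bp) and PCGF2 (1138 bp) peaks lay in an intron 23.6, 24.9 and 25.9 kb from the start site. Wnt7b, Wnt9b, Wnt11 and Fgf18 were among the genes that had RING1B and SUZ12 inside the gene without PCGF2. In Fgf11 and Fgf17 the peaks at the gene's end held the start sites of the neighbours Chrnb1 and Dmtn, and in Wnt5b an inner RING1B peak held that of Fbxl14.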
